A study of Homo sapiens with 6 samples.

Results

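The genes described here encode the kinetochore, the protein assembly that joins chromosomes to spindle microtubules, and the spindle checkpoint that watches over that joint. There were 42 of them, chosen by symbol for their known role, with earlier results of these data known, of 19775 genes with a probe set of their own on the arrays. They comprised 18 CENP proteins, 4 subunits of the NDC80 complex, 4 of the MIS12 complex, 3 of the SKA complex, 11 checkpoint or checkpoint-linked genes and 2 shugoshins. The measured cells were MM1.S, a human multiple myeloma line, that is, a cultured tumour of plasma cells. The 3 knockdown arrays came from cells that received lentivirus with a beta-catenin shRNA, and the 3 control arrays from cells that received the pKLO GFP control virus. All 6 cultures had thus been infected and sorted for GFP, and they stem from a single cell line. The labels describe triplicate cultures after the sort and no separate infections, so the p-values below measure the spread between these cultures. Neither the hairpin sequence nor the number of hairpins is given in the labels used here.

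At each centromere, nucleosomes that hold the histone H3 variant CENP-A are read by a constitutive network of CENP proteins that stays on chromatin through the cell cycle. In mitosis the MIS12 complex docks on this network and carries the NDC80 complex, which grips microtubules with help from the SKA complex. Kinetochores without microtubules recruit TTK, BUB1, BUBR1, MAD1 and MAD2, and the resulting inhibitor holds back CDC20 and the anaphase-promoting complex until every chromosome is attached. Many of these genes, though not all, are transcribed mainly in G2 and mitosis, so their RNA level in a culture depends on how many cells are dividing.

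Each value is the authors' log2 expression of a probe set, taken to have the form log2(signal + 16), and a gene was read by its probe set with the highest mean. With such an offset of 16, fold changes of dim probe sets are understated. Array-to-array correlation across probe sets was 0.986 to 0.990 within the knockdown, 0.980 to 0.983 within the control and 0.945 to 0.954 between them. CTNNB1, which encodes beta-catenin, was 2.51-fold lower in the knockdown on its probe set with the highest mean (limma, adjusted p = 9.04e-12), although 1 of its other probe sets was called higher and the remaining one was not called. All 6 plasma cell markers examined (SDC1, CD38, TNFRSF17, XBP1, PRDM1 and IRF4) lay above the expression filter of 5.49, 3 of them called lower and 2 higher. Of 18 markers of B, T, myeloid, erythroid and fibroblast cells, 15 had a probe set, 8 lay above the filter, 2 (CSF1R and HBB) were called higher and 0 lower (limma). The 3' minus 5' difference, a measure of RNA integrity, was 0.58 in knockdown and 0.67 in control arrays for ACTB (exact two-sided permutation p = 0.7) and 0.28 and 0.24 for GAPDH (p = 0.8).

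Most of the kinetochore and checkpoint genes were lower in the knockdown and not a single member was called higher. Of the 42 members, 40 were tested, MAD1L1 lay below the filter and CENPP had no probe set of its own. Of the 40, 3 passed the filter only through the control arrays, with a knockdown mean below 5.49: SPC25, SKA1 and CENPQ. A gene that passes in this way had to be lower in the knockdown, and its fold is a measured value near the floor of 4 that understates the change of the signal. By limma over all 12939 genes tested, 31 of the 40 were called lower at an adjusted p under 0.05, 0 higher, and 9 were not called. SPC25, SKA1 and CENPQ are among the 31, and the counts and median given here were not redone without them. At an unadjusted p under 0.05 the counts were 32 lower and 0 higher. Over all genes tested, 22.0% were called lower and 25.3% higher. A fall of at least 2-fold was called for 18 of the 40 members, against 3.39% of all genes. In 32 members every knockdown array lay below every control array, against 24.5% of all genes, and 0 members showed the opposite order, against 29.9% of all genes. The median change over the 40 tested members was −0.92 on the log2 scale, 52.8% of the control level, where all genes tested had a median of 0.05. SPC25 and CENPW had the lowest measured changes of the 12939 genes, SPC25 with knockdown values below the filter. Among the 100 lowest stood 10 members, SPC25 and SKA1 included. In such a bulk culture, fewer dividing cells and less RNA per dividing cell cannot be told apart.

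**Figure D1:**
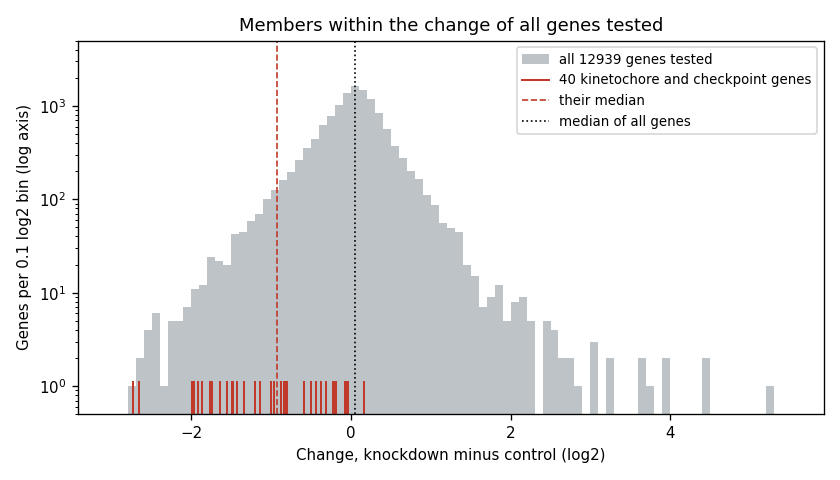
Histogram of the change (knockdown minus control, log2) of all 12939 genes tested, on a log count axis, with a red tick for each of the 40 tested kinetochore and checkpoint genes. The dashed line marks the members' median of −0.92, the dotted line the median of all genes at 0.05; the ticks run from −2.73 (SPC25) to 0.16 (MIS12).

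General markers of proliferating cells moved with these genes. MKI67, TOP2A, PCNA, CCNA2, CCNB1 and CDK1, 6 of 6, were called lower, against 22.0% of all genes tested. The changes of these 6 markers ran from −1.08 (PCNA) to −2.57 (CCNB1) log2 units. Their mean level ran from 7.03 to 7.26 over the knockdown arrays and from 9.10 to 9.26 over the control arrays. What part they have in the members' result was not tested.

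**Figure D2:**
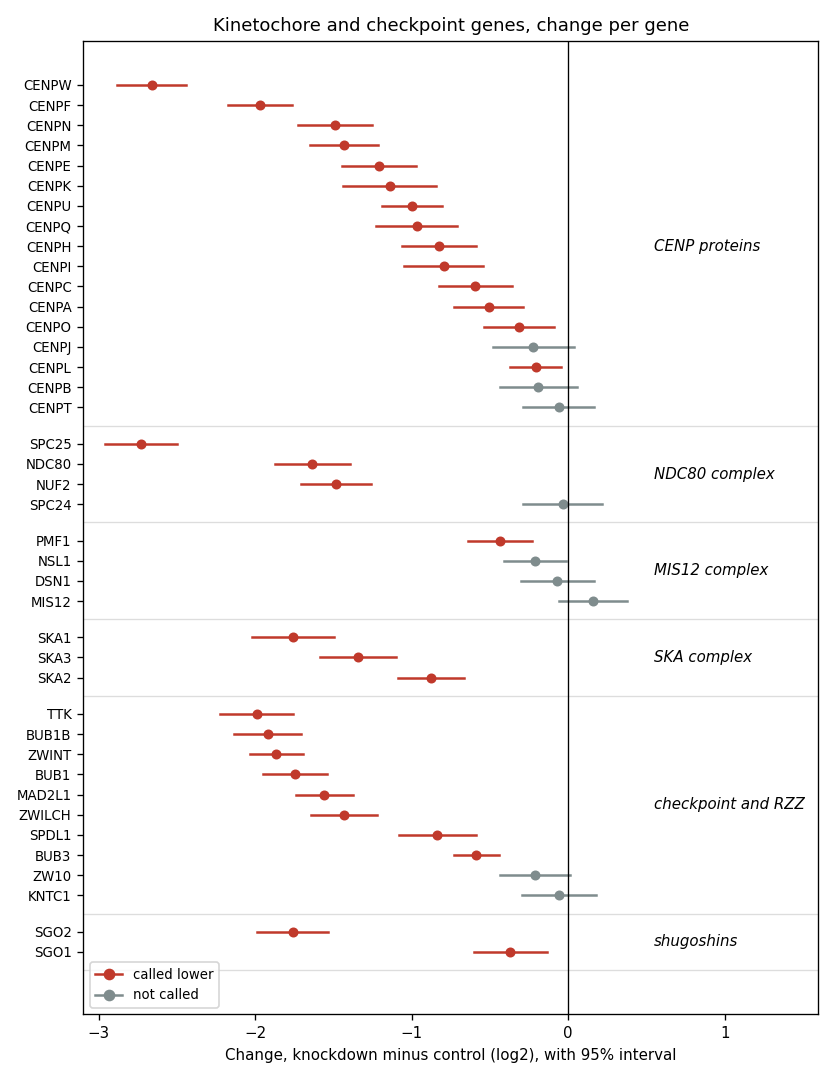
Change per gene (knockdown minus control, log2; points) with the 95% interval of the limma fit (bars), grouped by complex and sorted within it; red marks genes called lower and grey genes not called. NDC80, SKA and checkpoint genes reach −1.34 to −2.73 in most rows, whereas MIS12, DSN1, CENPT, SPC24 and KNTC1 sit between −0.07 and 0.16.

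In the microtubule-binding NDC80 complex, SPC25, which forms the end that faces the centromere, read 5.05, 5.19 and 4.96 in the knockdown cultures, against 7.83, 7.65 and 7.91 in the control cultures. The groups lay far apart, with a change of −2.73 log2 units (SE 0.11), or 6.63-fold lower (limma, adjusted p = 5.16e-18), against knockdown values that all lie below the filter. NDC80, the subunit that contacts the microtubule, had 5.72, 5.87 and 5.42 in the knockdown and 7.37, 7.24 and 7.32 in the control. Its partner NUF2 had 6.69, 6.67 and 6.39 in the knockdown and 8.16, 7.93 and 8.10 in the control. Both fell to about the same share, NDC80 to 32.1% (adjusted p = 1.18e-12) and NUF2 to 35.8% of the control level (adjusted p = 2.06e-12).

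The remaining subunit, SPC24, the dimer partner of SPC25, gave different answers on its pair of probe sets. The one with the highest mean read 6.04, 5.75 and 6.25 in the knockdown and 5.95, 6.17 and 6.04 in the control, a change of −0.04 (95% interval −0.29 to 0.22; limma, adjusted p = 0.837). The other read 5.00, 4.28 and 4.51 in the knockdown, against 6.59, 6.23 and 6.44 in the control, with no overlap. That probe set fell by 1.82, or 3.54-fold (limma over all 54613 probe sets, adjusted p = 2.06e-06), with knockdown values near the floor and a mean that passes the filter only through the control arrays. With the mean over both, SPC24 changed by −0.93 (limma, adjusted p = 7.54e-06), so whether all 4 subunits were lower depends on the probe set read.

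**Figure D3:**
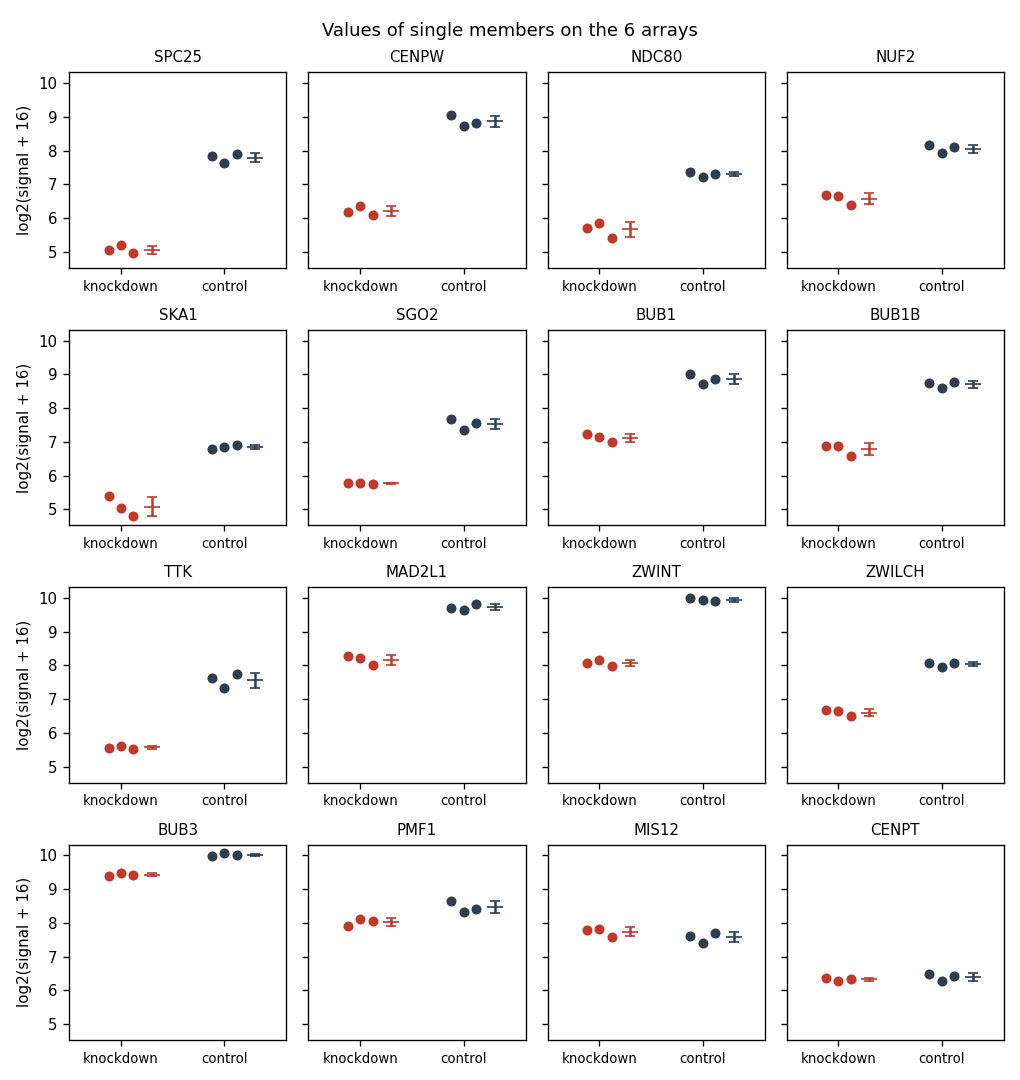
log2(signal + 16) of 16 members on each array, 3 knockdown points (red, left) and 3 control points (dark, right) per panel, with the mean and SD beside them. In the panels from SPC25 to PMF1 the knockdown points lie below all control points; in those of MIS12 and CENPT they overlap.

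The SKA complex, which helps NDC80 hold on to shortening microtubules, was lower in all 3 subunits, where 22.0% of all genes tested were called lower. SKA1 read 5.39, 5.05 and 4.81 in the knockdown, against 6.79, 6.84 and 6.90 in the control. This was a change of −1.76 (SE 0.13; limma, adjusted p = 1.80e-12), again with all knockdown values below the filter. SKA3 fell by 1.34 (adjusted p = 1.19e-10) and SKA2 by 0.88 (adjusted p = 2.59e-08). A further SKA2 probe set gave −1.14.

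The MIS12 complex, the platform between the inner centromere network and NDC80, had 1 of 4 subunits called lower. This is near the share of all genes tested that were called lower, 22.0%. PMF1 read 7.90, 8.12 and 8.06 in the knockdown, against 8.66, 8.32 and 8.42 in the control. It fell by 0.44 (SE 0.10; limma, adjusted p = 5.68e-04), to 73.8% of the control level. MIS12 itself read 7.80, 7.83 and 7.58 in the knockdown and 7.62, 7.41 and 7.71 in the control, which overlap. Its change of 0.16 (95% interval −0.06 to 0.38; adjusted p = 0.221) was the only one above 0 among the 40 members. DSN1, the subunit through which Aurora B controls the docking on CENP-C, changed by −0.07 (−0.30 to 0.16; adjusted p = 0.651). NSL1 changed by −0.21 (−0.41 to −0.01; adjusted p = 0.0715) and was called lower after centring on array medians (−0.27, adjusted p = 0.0199), after cyclic loess (adjusted p = 0.0292), after quantile normalization (adjusted p = 0.05) and without control replicate 2 (−0.27, adjusted p = 0.0307). The intervals of MIS12, DSN1 and NSL1 leave out falls of the size seen in NDC80, NUF2 or SKA1.

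Of the 17 CENP genes tested, 14 were called lower, 6 of them at least 2-fold, against 22.0% and 3.39% of all genes tested. The 14 include CENPQ, which passed the filter only through the control arrays and so had to be lower. CENPW, a histone-fold protein that pairs with CENP-T, read 6.19, 6.36 and 6.08 in the knockdown, against 9.05, 8.74 and 8.83 in the control. The 6.33-fold fall (−2.66, SE 0.11; limma, adjusted p = 3.07e-18) left 15.8% of the control level. CENPT read 6.37, 6.29 and 6.33 in the knockdown and 6.50, 6.27 and 6.42 in the control, a change of −0.06 (−0.29 to 0.16; adjusted p = 0.680). The partners thus differed in their change by −2.60 (SE 0.11). For this pair, chosen with the values known, the within-array difference did not overlap between the groups (exact two-sided permutation p = 0.1, the smallest that 3 against 3 arrays allow).

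CENPF, a coiled-coil protein of the outer kinetochore known to peak in G2 and mitosis, read 6.98, 6.97 and 6.73 in the knockdown, against 8.93, 8.89 and 8.77 in the control. It fell 3.92-fold (limma, adjusted p = 5.68e-16); averaged over its probe sets, a dim one included, CENPF changed by −1.23. CENPE, the kinesin that carries chromosomes to the spindle equator, fell 2.31-fold (adjusted p = 5.60e-10).

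Members of the constitutive network were called lower by differing amounts. CENPM and CENPN, of which CENPN binds the CENP-A nucleosome directly, changed by −1.43 and −1.49, and CENPK by −1.14 with the widest spread of any member in the knockdown (SD 0.37, n = 3). CENPU and CENPQ changed by −0.999 and −0.97, and CENPH, CENPI and CENPC by −0.82, −0.80 and −0.59, all called lower. The size of several of these depends on the probe set: CENPN gave −0.49 on its other probe set above the filter and −0.63 as a mean over probe sets, CENPU gave −0.52 and −0.55 on its others, and CENPI gave −0.22 as a mean over probe sets, 1 of which was called higher. CENPC, the protein that links CENP-A nucleosomes to the MIS12 complex, read 5.94, 5.96 and 5.81 in the knockdown, against 6.52, 6.34 and 6.63 in the control. CENPO, which sits with CENPP, CENPQ and CENPU, fell by 0.31 (adjusted p = 0.0183), and was no longer called without knockdown replicate 1 (adjusted p = 0.0879), knockdown replicate 2 (0.0635) or control replicate 1 (0.0511). Its other probe set, which passes the filter only through the control arrays, gave −0.76, and the mean over both −0.54. CENPB, which binds a short motif in alpha satellite DNA, was not called (−0.19, −0.44 to 0.06; adjusted p = 0.201). CENPJ, listed under its current symbol CPAP and known for building centrioles rather than kinetochores, was not called either (−0.22; adjusted p = 0.151). Without control replicate 2 it was called lower (−0.38, adjusted p = 0.00910), as it was with the mean over its 3 probe sets (−0.24, adjusted p = 0.0425).

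CENPA, the centromeric histone itself, read 6.32, 6.22 and 6.20 in the knockdown, against 6.68, 6.72 and 6.86 in the control, a fall of 0.51 (limma, adjusted p = 2.64e-04). A probe set annotated to CENPA together with SLC35F6 differed by −1.76 (5.42, 5.26 and 5.28 in the knockdown, 7.22, 6.88 and 7.17 in the control), and its signal cannot be given to either gene. The CENPL probe set with the highest mean read 9.32, 9.41 and 9.32 in the knockdown, against 9.73, 9.51 and 9.43 in the control. Its fall of 0.21 (adjusted p = 0.0339) was lost without an intensity trend in the variance (adjusted p = 0.108), without a filter (0.0548) and without any of knockdown replicate 1, knockdown replicate 3 or control replicate 1 (0.0934 to 0.145). The further CENPL probe set read 6.19, 6.34 and 5.98 in the knockdown and 7.50, 7.53 and 7.67 in the control cultures, 2.63-fold lower (limma over all probe sets, adjusted p = 5.34e-07).

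Among the 11 checkpoint genes, 10 were tested, 8 were called lower and 6 fell at least 2-fold. Of all genes tested, 22.0% were called lower and 3.39% were called with a fall of at least 2-fold. TTK, the MPS1 kinase that starts checkpoint signalling, read 5.57, 5.61 and 5.53 in the knockdown, against 7.62, 7.32 and 7.74 in the control. BUB1B, which encodes the checkpoint inhibitor BUBR1, read 6.87, 6.89 and 6.57 in the knockdown, against 8.75, 8.59 and 8.76 in the control. BUB1, the kinase that recruits the other checkpoint proteins, read 7.23, 7.14 and 6.98 in the knockdown, against 9.00, 8.72 and 8.87 in the control. In each of these genes the groups were more than 1 log2 unit apart. The falls were 3.97-fold for TTK (adjusted p = 8.95e-15), 3.79-fold for BUB1B (adjusted p = 2.58e-15) and 3.35-fold for BUB1 (limma, adjusted p = 9.26e-15). Averaged over 5 probe sets, 3 of them below the filter, BUB1 changed by −0.88.

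MAD2L1, the MAD2 protein that binds CDC20, read 8.29, 8.22 and 8.0 in the knockdown, against 9.70, 9.66 and 9.83 in the control, a 2.94-fold fall (limma, adjusted p = 6.38e-15). Its other probe sets above the filter gave −1.39 and −0.46, and the mean over probe sets was −1.13. BUB3, the shared adaptor that brings BUB1 and BUBR1 to the kinetochore, read 9.40, 9.49 and 9.42 in the knockdown, against 9.996, 10.06 and 10.01 in the control. Its fall of 0.59 (SE 0.07; adjusted p = 3.84e-08) was seen on all 4 of its probe sets above the filter, which gave −0.41 to −0.65, while the mean that includes 2 dim ones was −0.29. BUB3 was less reduced than BUB1 and BUB1B. The change of BUB1 minus that of BUB3 was −1.16 (SE 0.13), and that of BUB1B minus BUB3 was −1.34 (SE 0.12). Both pairs, chosen with the values known, showed no overlap between groups (exact permutation p = 0.1, the smallest possible with these arrays). MAD1L1, the anchor of MAD2 at kinetochores, was below the filter, with 4.62, 4.57 and 4.74 in the knockdown and 5.45, 4.97 and 5.00 in the control, values near the floor of 4. Its change of −0.50 was called lower in the fit over all probe sets (limma, adjusted p = 0.0222).

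The RZZ complex, which brings dynein and MAD1 to kinetochores, consists of ROD (KNTC1), ZW10 and ZWILCH, and its 3 genes did not move as a block. ZWILCH read 6.67, 6.65 and 6.50 in the knockdown, against 8.08, 7.96 and 8.07 in the control, a 2.70-fold fall (limma, adjusted p = 1.10e-12), with −1.39 on its further probe set. KNTC1 read 6.83, 6.92 and 6.45 in the knockdown and 6.78, 6.76 and 6.83 in the control, which overlap (−0.06, −0.30 to 0.18; adjusted p = 0.714). ZW10 read 7.07, 7.07 and 6.76 in the knockdown, against 7.22, 7.14 and 7.19 in the control. These did not overlap, but the change of −0.21 was not called (−0.43 to 0.01; adjusted p = 0.110) unless arrays were centred (adjusted p = 0.0352), quantile normalized (0.0421) or scaled by cyclic loess (0.0381). The change of ZWILCH minus that of KNTC1 was −1.37 (SE 0.10), and minus that of ZW10 it was −1.22 (SE 0.05). Both pairs, chosen with the values known, showed no overlap between groups (exact permutation p = 0.1, the smallest possible with these arrays). ZWINT, which tethers RZZ to the kinetochore, read 8.08, 8.18 and 7.99 in the knockdown, against 10.01, 9.93 and 9.91 in the control (3.64-fold lower; adjusted p = 1.94e-17). SPDL1, the dynein adaptor Spindly, fell by 0.84 (adjusted p = 1.14e-06), and changed by −0.44 as a mean with a dim probe set.

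In all, 8 pairs of partners were compared, chosen with the values known, and each gave the smallest exact p of 0.1, which is also 0.1 after adjustment over the pairs. With pairs picked by their values and a p that cannot go lower, the test cannot show that partners differ. Among the 8 pairs NDC80 and NUF2 differed least, by −0.16 (SE 0.06), and gave the same p as the rest. The largest difference, −2.69 (SE 0.25) between SPC25 and SPC24, rests on the SPC24 probe set that did not fall, and the −1.28 (SE 0.11) between CENPN and CENPL on the CENPN probe set that fell most and the CENPL probe set that fell least. On the other probe sets above the filter CENPN gave −0.49 and CENPL −1.39, the opposite order.

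The shugoshins guard centromeric cohesion until anaphase, SGO1 foremost in mitosis and SGO2 chiefly in meiosis. SGO2 read 5.79, 5.77 and 5.74 in the knockdown, against 7.67, 7.36 and 7.56 in the control, 3.39-fold lower (limma, adjusted p = 5.21e-14). SGO1 read 5.85, 5.82 and 5.88 in the knockdown, against 6.14, 6.14 and 6.38 in the control. It fell by 0.37 (SE 0.11, limma, adjusted p = 0.00826), and by 0.55 on its other probe set, which passes the filter only through the control arrays. The call on the probe set used was lost without control replicate 3 (limma, adjusted p = 0.0646).

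Read probe set by probe set, the members had 76 probe sets of a single symbol. Of these, 51 were called lower, 1 higher and 24 not (limma over all 54613 probe sets, of which 9.95% were called lower and 13.3% higher). Above the filter the counts were 47 lower, 0 higher and 13 not called of 60. The shares over all probe sets include dim ones and do not compare with these counts. No share was taken over all probe sets above the filter, so the counts of the 60 stand without a background. Among the 47, 1 probe set each of SPC25, SKA1, CENPQ, SPC24, CENPO and SGO1 passed the filter only through the control arrays. Those probe sets had to be lower in the knockdown. The member probe set called higher was a dim one of CENPI, below the filter (5.69, 5.36 and 5.69 in the knockdown, 5.14, 5.06 and 4.67 in the control). Of 15 members with several probe sets above the filter, 11 had all of these called lower, and the other 4 were CENPJ, CENPL, NSL1 and SPC24. The 11 include CENPO and SGO1, each with a probe set that passed only through the control arrays. No such count was made over all genes.

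**Figure D4:**
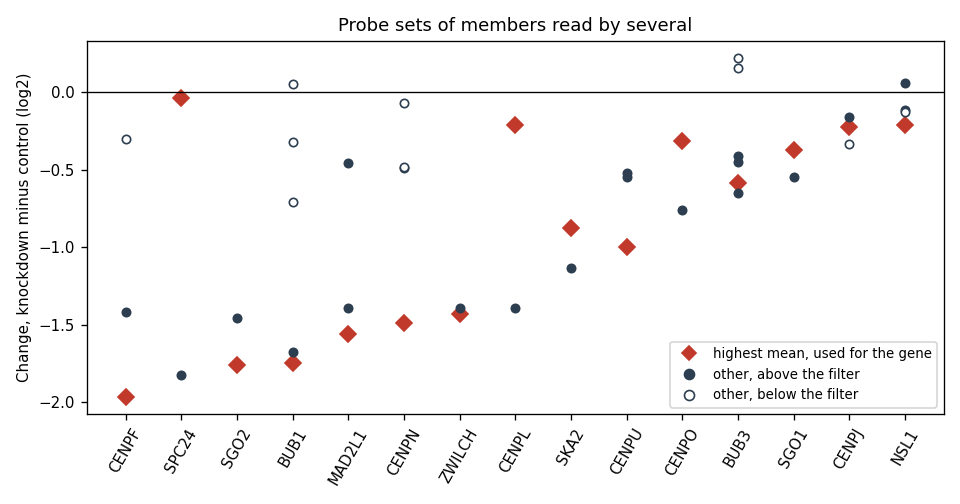
Change (knockdown minus control, log2) of each probe set of the 15 members read by several above the filter; red diamonds are the probe set used for the gene, filled circles others above the filter, open circles others below it. SPC24 and CENPL show a diamond near 0 beside a circle at −1.82 or −1.39, and open circles run from −0.71 to 0.22.

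Of 35 genes of the same pathway outside the 42 members, 31 were tested; 20 were called lower and 4 higher (limma; 22.0% and 25.3% of all genes). All 6 tested centromere genes were called lower: KNL1, the scaffold that binds BUB3 (−1.71), OIP5, MIS18A and HJURP, which load new CENP-A (−1.64, −1.34 and −1.21), and ITGB3BP (CENP-R) and CENPX (−0.71 and −0.66). Of the checkpoint signalling genes, the MAD2-remodelling ATPase TRIP13 changed by −1.97, CDC20 by −1.93 and the kinase PLK1 by −1.39. MAD2L1BP fell by 0.26 (adjusted p = 0.0465), a call lost in 8 other settings, among them the replicate block (adjusted p = 0.117).

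The anaphase-promoting complex, the ubiquitin ligase that the checkpoint restrains, was mixed. Of 16 of its subunits and cofactors tested, 9 were called lower and 2 higher, with 1 fall of at least 2-fold. Over all genes tested these shares were 22.0%, 25.3% and 3.39%. The 2-fold fall was that of UBE2C, an E2 enzyme of the complex (−1.46). It was followed by UBE2S (−0.94), ANAPC11 (−0.83), ANAPC15 (−0.72), CDC26 (−0.52), ANAPC4 (−0.35), ANAPC7 and CDC23 (−0.33 each) and the coactivator FZR1 (−0.30). The CDC23 call was lost without knockdown replicate 3 or control replicate 3 (adjusted p = 0.0643 and 0.0963), and that of ANAPC7 with unmarked probe sets first (0.209). The FZR1 call was lost with the replicate block (adjusted p = 0.0658), when its probe sets were averaged (−0.10, adjusted p = 0.388), and without knockdown replicate 2 (0.126), knockdown replicate 3 (0.0647) or control replicate 3 (0.0875). Without control replicate 2 another FZR1 probe set was read, and the change was 0.0211. ANAPC13 rose by 0.82 (limma, adjusted p = 4.58e-09) and ANAPC16 by 0.30. Of 5 genes of dynein recruitment, DYNLL1 fell by 0.38, while NDEL1 and DCTN2 rose by 0.57 and 0.36; both calls were lost when probe sets were averaged (adjusted p = 0.0841 and 0.0858).

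Promoters of the members were set beside their changes because genes of G2 and mitosis are known for a shared promoter layout. In it NF-Y binds CCAAT boxes and MuvB complexes bind the cell-cycle homology region, whose core is TTTGAA, close to the start of transcription, while E2F factors bind sites such as GCGGGAA. RefSeq windows of GRCh38.p14 from 250 bases before to 50 bases after the gene start were found for 36 of the 42 members (42 windows). These 3 motifs were searched on both strands, and none of them contains another. The last 100 bases before the start, 5′ to 3′ on the gene's strand, are given for SPC25, CENPW, CENPF, BUB1B and ZWINT, which fell more than 3-fold, and for SPC24, DSN1 and CENPT, whose groups overlapped on the probe set used. They were picked to show promoters with and without matches in both sets. Capitals mark matches to the motifs, on either strand.
SPC25: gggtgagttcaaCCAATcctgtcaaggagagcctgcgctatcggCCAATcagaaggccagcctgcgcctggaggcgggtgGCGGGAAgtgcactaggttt
CENPW: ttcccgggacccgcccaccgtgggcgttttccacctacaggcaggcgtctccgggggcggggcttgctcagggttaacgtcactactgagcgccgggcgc
CENPF: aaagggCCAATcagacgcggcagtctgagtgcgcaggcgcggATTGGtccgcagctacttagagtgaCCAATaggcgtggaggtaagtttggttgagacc
BUB1B: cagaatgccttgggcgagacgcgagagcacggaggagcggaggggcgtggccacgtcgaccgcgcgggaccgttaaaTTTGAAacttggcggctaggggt
ZWINT: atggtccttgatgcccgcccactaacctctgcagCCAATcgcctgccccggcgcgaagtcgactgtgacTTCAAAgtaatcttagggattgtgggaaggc
SPC24: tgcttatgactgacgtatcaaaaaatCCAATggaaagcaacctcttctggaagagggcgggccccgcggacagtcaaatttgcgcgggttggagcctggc
DSN1: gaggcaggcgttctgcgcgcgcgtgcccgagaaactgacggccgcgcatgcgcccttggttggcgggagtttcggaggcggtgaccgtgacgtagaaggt
CENPT: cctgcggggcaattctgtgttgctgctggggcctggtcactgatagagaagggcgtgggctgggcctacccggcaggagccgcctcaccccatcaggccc
On GRCh38.p14 the stretches lie for SPC25 at chr2:168890431-168890530 on the minus strand, for CENPW at chr6:126340015-126340114 on the plus strand, for CENPF at chr1:214603095-214603194 on the plus strand, for BUB1B at chr15:40160969-40161068 on the plus strand, for ZWINT at chr10:56361260-56361359 on the minus strand, for SPC24 at chr19:11155783-11155882 on the minus strand, for DSN1 at chr20:36773764-36773863 on the minus strand and for CENPT at chr16:67847694-67847793 on the minus strand; ZWINT has a further start listed nearby.

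SPC25 carried a pair of CCAAT boxes and a GCGGGAA in this stretch, with a TTTGAA that begins 3 bases before the start and so runs past its end. CENPF carried 3 CCAAT matches, BUB1B a TTTGAA 23 bases before the start, and ZWINT a CCAAT with a TTTGAA on the opposite strand. CENPW held no match in this stretch, and its window held CCAAT farther upstream. Of the members with overlapping groups, SPC24 carried a CCAAT here, MIS12 held CCAAT and GCGGGAA in its windows and CENPB held GCGGGAA. By contrast, DSN1, CENPT, CENPJ and NSL1 held no match to any of the 3 motifs in their whole windows, and KNTC1 had no window.

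Whole TTTGAA matches within 50 bases of the start were found in 10 of the 16 members with a window that had fallen at least 2-fold: SPC25, CENPF, BUB1B, ZWINT, SKA1, NDC80, MAD2L1, CENPN, NUF2 and SKA3. They were also found in 3 of the other 20 members, CENPA, SPDL1 and CENPO; these 20 include MAD1L1 and CENPP. By window these were 61.1% (11 of 18) and 12.5% (3 of 24), against 4.62% of all 35116 promoter windows. CENPW, CENPE, BUB1, CENPK, SGO2 and ZWILCH fell at least 2-fold and held no TTTGAA in their windows. The members were split by their own measured changes. SPC25 and SKA1, among the 10, passed the expression filter only through the control arrays and so had to be lower. SPC24 stands among the other 20 by its probe set that did not fall, and CENPU, at −0.999, lies just outside the 2-fold cut. CCAAT anywhere in the window was found in 66.7% of the windows of the members lowered at least 2-fold and in 54.2% of the others, against 34.6% of all windows. For GCGGGAA the shares were 16.7%, 25.0% and 6.55%. These are matches of letters and no evidence of binding, and the members were chosen with their changes known.

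**Figure D5:**
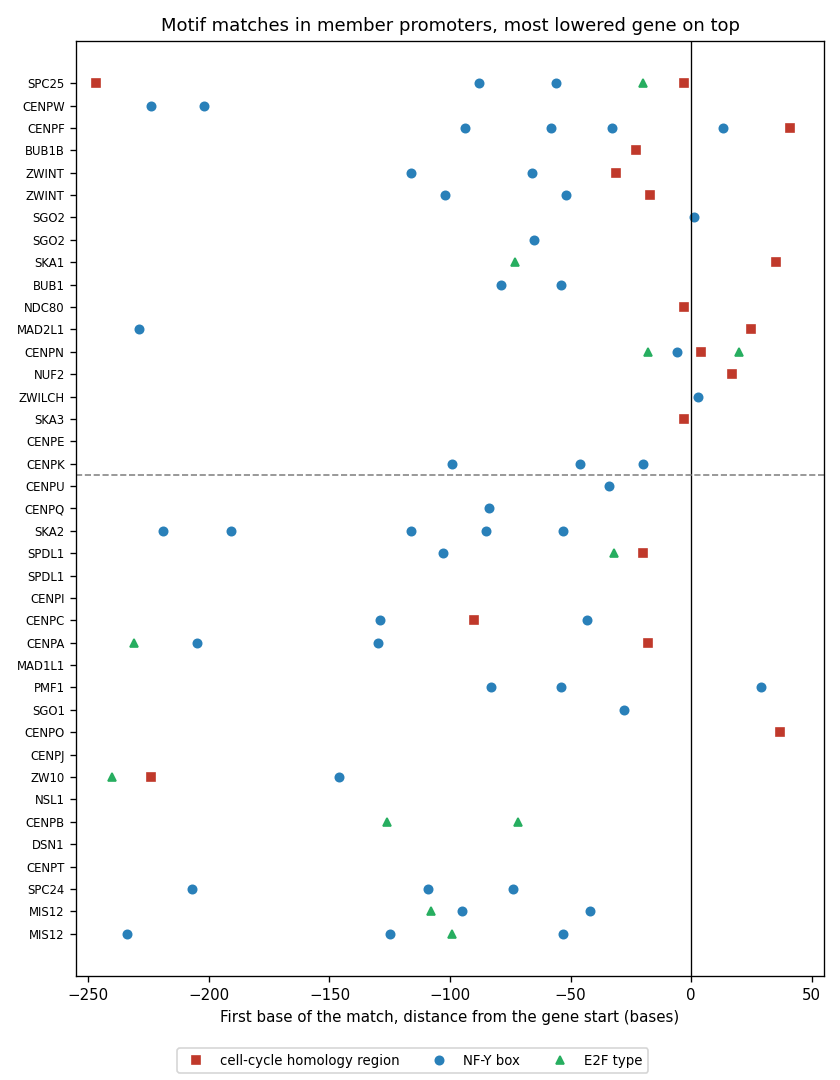
First base of each match to the cell-cycle homology region (squares), the NF-Y box (circles) and the E2F-type site (triangles), by distance in bases from the gene start, in each promoter window of a member with a value; genes are sorted by change, the most lowered on top. The dashed line separates members lowered at least 2-fold (above) from the others; squares above it lie at −31 to 41 bases, except a further SPC25 match at −247.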

How the data were processed

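RNA of MM1.S cells was measured on 6 single-colour Affymetrix arrays, 3 of knockdown and 3 of control cultures, grouped by the sample titles; a description in the labels that speaks of embryos contradicts the cell line and was not used. The authors deposited log2 expression values per probe set, with a floor at 4 (the log2 of 16). From this floor the values were taken to have the form log2(signal + 16). MAS5 and PLIER appear in the submitters' processing notes, without the role of each; normalization between arrays is not stated there. Precision is limited by the small number of arrays.

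Of 54675 probe sets, 62 controls were set aside. The platform annotation gave 41091 probe sets 1 symbol, 1801 several and 11721 none. CENPJ was matched through a RefSeq synonym. A gene was read by its single-symbol probe set with the highest mean and tested if that mean reached 5.49, the median of all probe sets. The main test was limma 3.58.1 (R 4.3.3; lmFit, then eBayes with trend), two-sided, Benjamini-Hochberg adjusted over 12939 genes, threshold 0.05; changes are knockdown minus control. The fit was tested on simulated data. Partners were compared with exact permutation tests. Every member is named, and of the neighbour genes those called. Members and lists were chosen with earlier results of these data known. Alternatives were the replicate block, other scalings, filters, probe set rules, variance models and offset, and leaving out each array. Replicate numbers were not taken to pair the samples: same-numbered arrays correlated at −0.22 to −0.04 in their deviations, and others at −0.06 to 0.16. These correlations cannot settle whether the cultures were handled in pairs.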

Additional observations from a re-analysis of the deposited data

How the results depend on the processing

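Across 17 alternative settings, 22 to 33 members were called lower and 0 higher, and 28 of the 31 members called lower were so in every setting that tested them; the exceptions were CENPL, CENPO and SGO1. With the replicate number as a block, 30 members were called lower and 0 higher. Besides CENPL the block changed no other member's call, and the numbers were not taken to pair the samples. The median change of the members was −1.39 with a filter at the 75th percentile, which left 26 members, and −0.63 with an offset of 64, which shrinks every change by construction; that filter left 32 member probe sets called lower because fewer were tested. Leaving out 1 array at a time gave medians of −0.97 to −0.83 and 29 to 33 members called lower. Of the members not called, some crossed 0: SPC24 ran from −0.15 to 0.10, DSN1 from −0.14 to 0.0035 and KNTC1 from −0.15 to 0.0824 when 1 array was left out, and NSL1 gave 0.0586 with unmarked probe sets first. Among neighbour genes FZR1, called lower, ran from −0.36 to 0.0211, with another probe set read at the upper end. CTNNB1 kept its call, at −0.36 with the mean over probe sets and −0.98 to −1.39 otherwise. With unmarked probe sets first, CENPF, BUB3 and SPDL1 fell below the filter and were not tested. Dim probe sets limit what can be said of MAD1L1 and of falls near the floor.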

Other observations

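Knockdown replicate 3 gave the lowest of the knockdown values in 31 of the 40 tested members, and in 52.0% of all genes tested. Control replicate 2 gave the lowest of the control values in 26 of the 40, and in 55.4% of all genes. The median level of the members was 6.29, 6.29 and 6.22 on the knockdown arrays and 7.40, 7.19 and 7.31 on the control arrays. The median SD of a member was 0.14 in the knockdown and 0.13 in the control (n = 3 each).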
